A study of Mus musculus with 15 samples.

Results

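Nlk, the Nemo-like kinase, and 9 genes of the Wnt pathway were followed on 15 Affymetrix arrays of microdissected mouse lung. The 10 genes (Nlk, Axin2, Lgr4, Lgr5, Nkd1, Lef1, Tcf7l2, Ctnnb1, Wnt7b and Fzd2) were taken as every probe set that carried 1 of these symbols in the platform annotation, which gave 27 of 45037 probe sets and 10 of 18193 genes. Hyperplastic lesions gave 7 arrays, of which 3 were labelled H1 and 4 H2, and normal cells gave 8. All mice carried a knock-in allele encoding the K-RasG12V oncoprotein, and all lungs were collected 3 months after an adenovirus had delivered Cre recombinase. A colour marker expressed from the same allele shows which cells carry the oncoprotein, and each lesion held about 500 cells. Normal cells were cut by laser capture from the lung sections that held the lesions, so both kinds of cell came from mice with the knock-in allele and the virus. The samples are numbered as biological replicates. The basis on which a lesion was called H1 or H2, the number of mice and the mice that samples had in common are not stated in the labels. Regions cut from 1 mouse are not independent, so the p-values may be too small where samples of 1 group shared a mouse and too large where samples of different groups did.

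Wnt proteins are secreted ligands that bind Frizzled receptors. In the canonical branch, binding stops a complex built on Axin from marking β-catenin for degradation, and β-catenin then enters the nucleus and switches on target genes together with TCF/LEF factors. Nlk is a serine/threonine kinase related to the MAP kinases that can phosphorylate TCF/LEF factors and so alter their action on target genes. In the lung the pathway is needed for development, and in the adult Axin2 marks alveolar type 2 (AT2) cells that respond to Wnt, a progenitor population of the alveolus.

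Values are log2 signals per probe set. Differences are differences of such log2 signals, given ± SE (the standard error from limma), while levels are means ± SD. Levels of different probe sets cannot be compared with each other, since probes differ in how strongly they bind. The median over all probe set means was 3.99, and 10 of the 27 probe sets had all 3 group means below it. A probe set named for a gene does not distinguish fewer cells of a type in the captured material from less RNA in each cell. The 10 genes were selected on pathway membership with their differences from normal cells on these arrays already known, so those differences are given as a description with no p-value. Calls against normal cells are counted beside the share of all genes called, and p-values of the 10 genes are given for H1 against H2. If lesions were sorted into H1 and H2 by these same arrays, differences between H1 and H2 would be partly built in. That would hold for their p-values, intervals and overlap, and for which of H1 and H2 lay closer to normal. The labels cannot settle this, so these values describe the arrays and are not an independent test. The closing section gives only how those counts change with the processing.

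Bases from before transcript starts are shown for Nlk and Ctnnb1, the genes whose lesion arrays stood farthest above normal arrays here. They are also shown for Lef1, which encodes a factor of the pathway that binds DNA. The sequences are those of RefSeq (GRCm38.p6), read 5′ to 3′ on the strand of the gene, and hold only bases outside the annotated gene. For Nlk, the 170 bases nearest the transcript start lie inside the annotated gene and are left out, which leaves 80. Capitals mark CTTTG or its reverse complement CAAAG, the shared core of TCF/LEF binding sites.
Nlk, chr11:78697596-78697675, minus strand: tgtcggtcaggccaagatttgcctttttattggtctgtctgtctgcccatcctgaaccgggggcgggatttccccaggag
Ctnnb1, chr9:120933150-120933399, plus strand: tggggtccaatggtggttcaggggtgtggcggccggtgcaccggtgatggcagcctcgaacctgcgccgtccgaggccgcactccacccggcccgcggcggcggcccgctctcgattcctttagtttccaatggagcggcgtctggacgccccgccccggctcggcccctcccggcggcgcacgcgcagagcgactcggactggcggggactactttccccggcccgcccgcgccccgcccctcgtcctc
Lef1, chr3:131110047-131110296, plus strand: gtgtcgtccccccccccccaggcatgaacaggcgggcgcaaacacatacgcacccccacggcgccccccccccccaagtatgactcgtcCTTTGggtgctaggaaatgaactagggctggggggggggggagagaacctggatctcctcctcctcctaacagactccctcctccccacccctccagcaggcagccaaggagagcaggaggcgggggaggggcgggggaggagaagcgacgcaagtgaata
The longer motif CTTTGAT, with its reverse complement ATCAAAG, was in 0 of the 12 windows of 250 bases before transcript starts that the sequence table held for 7 of the 10 genes, and in 3.21% of 32851 windows of all genes. The core, a choice made after the values were seen and one that every longer match also contains, was in 6 of the 12 windows and in 48.6% of all windows. Of these 6 windows 4 were of Lef1, of which the first 2 overlap, and 2 were of Tcf7l2, so that 2 of 7 genes held the core, against 52.2% of all genes. A match is a description of the letters, not evidence that a factor binds there.

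By its brightest probe set, 1456467_s_at, Nlk was higher on every lesion array than on any normal array. It read 6.26, 6.18 and 6.54 on the H1 arrays and 7.87, 7.18, 7.34 and 6.63 on the H2 arrays, against a lowest value of 2.95, a median of 5.02 and a highest of 5.92 on the normal arrays. The lowest lesion array therefore lay above the highest normal array, and the lowest H2 array lay above the highest H1 array. Levels averaged 6.32 ± 0.19 in H1 (n = 3), 7.26 ± 0.51 in H2 (n = 4) and 4.94 ± 0.96 in normal cells (n = 8). The difference was 1.92 ± 0.39 for all lesions minus normal, 1.39 ± 0.48 for H1 minus normal and 2.32 ± 0.44 for H2 minus normal. The suffix s marks probe sets whose probes can match more than 1 transcript, so this reading may include other RNA than that of Nlk.

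The other Nlk probe sets gave smaller differences in the same direction. Probe set 1419112_at read 4.98, 5.14 and 4.71 in H1 and 4.50, 4.32, 4.87 and 4.55 in H2, against 3.77 to 4.85 in normal cells with a median of 4.28. Here H1 stood above H2, the reverse of the brightest probe set, and the lesions overlapped normal cells. Probe set 1435970_at read 4.37, 5.08 and 4.89 in H1 and 5.65, 3.84, 5.92 and 5.03 in H2, against 2.88 to 4.73 in normal cells with a median of 3.73. Both lesion groups again overlapped normal cells, through 1 H1 array and 1 H2 array. The H1 minus normal difference was 0.64 and 1.06 for these probe sets, and H2 minus normal was 0.26 and 1.39.

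**Figure D1:**
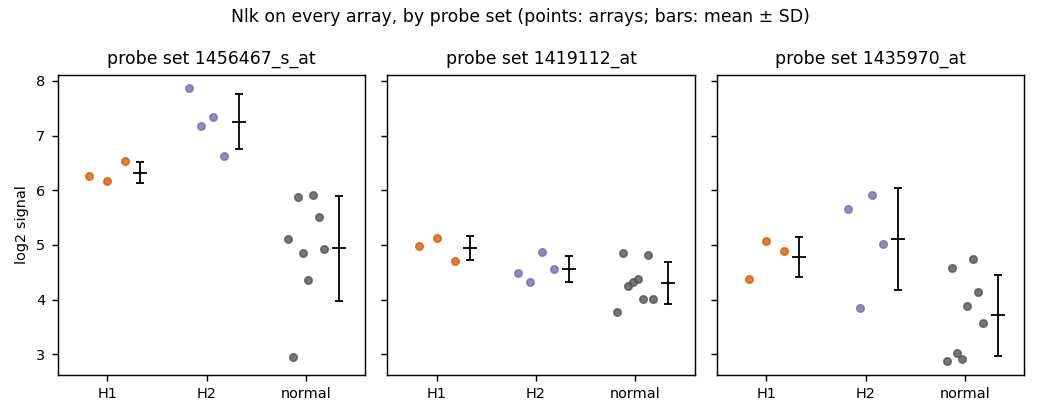
Log2 signal of the 3 Nlk probe sets on each array (points), with the mean and SD of H1 (3 arrays), H2 (4 arrays) and normal cells (8 arrays). For 1456467_s_at the lesion arrays lie between 6.18 and 7.87, above the normal arrays, which end at 5.92, while the groups overlap for the other 2 probe sets.

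Ctnnb1, which encodes β-catenin, was higher in lesions on average, with normal arrays that ranged widely. Its brightest probe set read 11.07, 11.97 and 11.92 in H1 and 11.96, 11.88, 12.37 and 12.39 in H2, against 5.95 to 11.76 in normal cells with a median of 10.85. All 4 H2 arrays lay above all normal arrays, while 1 H1 array lay among them. Levels were 11.65 ± 0.51 in H1, 12.15 ± 0.27 in H2 and 10.20 ± 1.99 in normal cells. The difference was 1.45 ± 0.92 for H1 minus normal and 1.95 ± 0.83 for H2 minus normal. Normal replicate 2 was the array at 5.95, and without it the H1 difference was 0.84 and the H2 difference 1.34. The remaining probe sets gave 0.51 and -0.45 for H1 minus normal and 0.88 and 0.32 for H2 minus normal.

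The TCF/LEF factors, the nuclear partners of β-catenin and substrates of Nlk, did not move together. Lef1 was lower in H2, where its brighter probe set read 5.39, 5.57, 5.48 and 5.71, and it read 5.87, 5.87 and 6.15 in H1, against 5.47 to 6.73 in normal cells with a median of 6.24. All H1 arrays lay above all H2 arrays, and both groups overlapped normal cells. The difference was -0.24 ± 0.24 for H1 minus normal and -0.66 ± 0.22 for H2 minus normal. The dimmer Lef1 probe set gave 0.13 for H2 minus normal and carried 1 identical value, 2.41, on 5 arrays. Tcf7l2, which encodes the factor TCF4, read 4.29, 5.95 and 5.16 in H1 and 2.75, 6.01, 7.76 and 6.30 in H2, against 4.19 to 5.80 in normal cells with a median of 4.96. The H2 arrays included both the lowest and the highest value of all arrays. H2 minus normal was 0.63 ± 0.65. It was 1.62 without H2 replicate 1, and its direction turned without H2 replicate 6 (-0.05) and with the spread of array values as a term in the fit (-0.11). H1 minus normal was 0.06 ± 0.71.

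Among the genes at the cell surface, none separated lesions from normal cells. Wnt7b, a ligand made by lung epithelium during development, read 4.59, 4.27 and 4.33 in H1 and 3.56, 3.63, 4.33 and 4.12 in H2, against 3.87 to 4.58 in normal cells with a median of 4.24. H1 minus normal was 0.17 ± 0.21 and H2 minus normal was -0.32 ± 0.19. Fzd2, a Frizzled receptor, read 5.67, 5.92 and 5.77 in H1 and 4.90, 5.46, 5.32 and 6.69 in H2, against 4.16 to 6.22 in normal cells with a median of 5.60. Its 3 group means lay within 1 SD of the normal mean, with H1 minus normal at 0.30 ± 0.42 and H2 minus normal at 0.11 ± 0.38.

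Lgr4 and Lgr5 encode receptors for R-spondins, secreted proteins that strengthen Wnt signalling, and Lgr5 is known as a stem cell marker of the gut. Lgr4 read 4.41, 5.38 and 4.76 in H1 and 3.53, 4.99, 5.81 and 3.93 in H2, against 3.09 to 5.72 in normal cells with a median of 4.11. The 3 groups overlapped, and the differences from normal were 0.59 ± 0.55 for H1 and 0.30 ± 0.49 for H2. Lgr5 read 4.16, 3.18 and 2.96 in H1 and 3.25, 2.94, 3.15 and 3.25 in H2, against 2.90 to 4.14 in normal cells with a median of 3.34. All 3 group means of Lgr5 lay below 3.99, which was true of the brightest probe set of no other of the 10 genes. H1 minus normal was -0.002 ± 0.29 and H2 minus normal -0.29 ± 0.26 for Lgr5.

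Axin2 and Nkd1, a scaffold of the destruction complex and an inhibitor that acts through Dishevelled, are both switched on by Wnt signalling and limit it in turn. Both were lower in H2 than in normal cells, and H1 lay closer to normal. Axin2 read 4.99, 4.85 and 5.01 in H1 and 4.28, 3.34, 4.46 and 4.90 in H2, against 4.82 to 5.19 in normal cells with a median of 5.06. Of the H2 arrays, 3 lay below every normal array and 1 lay among them. Axin2 averaged 4.95 ± 0.08 in H1, 4.24 ± 0.66 in H2 and 5.04 ± 0.13 in normal cells. The difference was -0.09 ± 0.25 for H1 minus normal and -0.79 ± 0.22 for H2 minus normal. Without H2 replicate 5, the array at 3.34, H2 minus normal was -0.49. The dimmer Axin2 probe set gave -0.34 for H2 minus normal.

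Nkd1 read 5.56, 5.28 and 5.01 in H1 and 4.42, 4.09, 4.78 and 3.95 in H2, against 4.71 to 6.73 in normal cells with a median of 5.66. H1 lay above every H2 array, and 1 H2 array reached into the normal range. The difference was -0.33 ± 0.35 for H1 minus normal and -1.30 ± 0.32 for H2 minus normal. These values come from the brightest of 4 probe sets, and for the remaining 3 H2 minus normal lay between -0.06 and 0.03. Of those 3, 1 carried the value 4.48 on 6 arrays and 1 carried 4.06 on 4 arrays. Such a repeat on at least 4 arrays occurred in 4 of the 27 probe sets and in 5.37% of all probe sets.

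**Figure D2:**
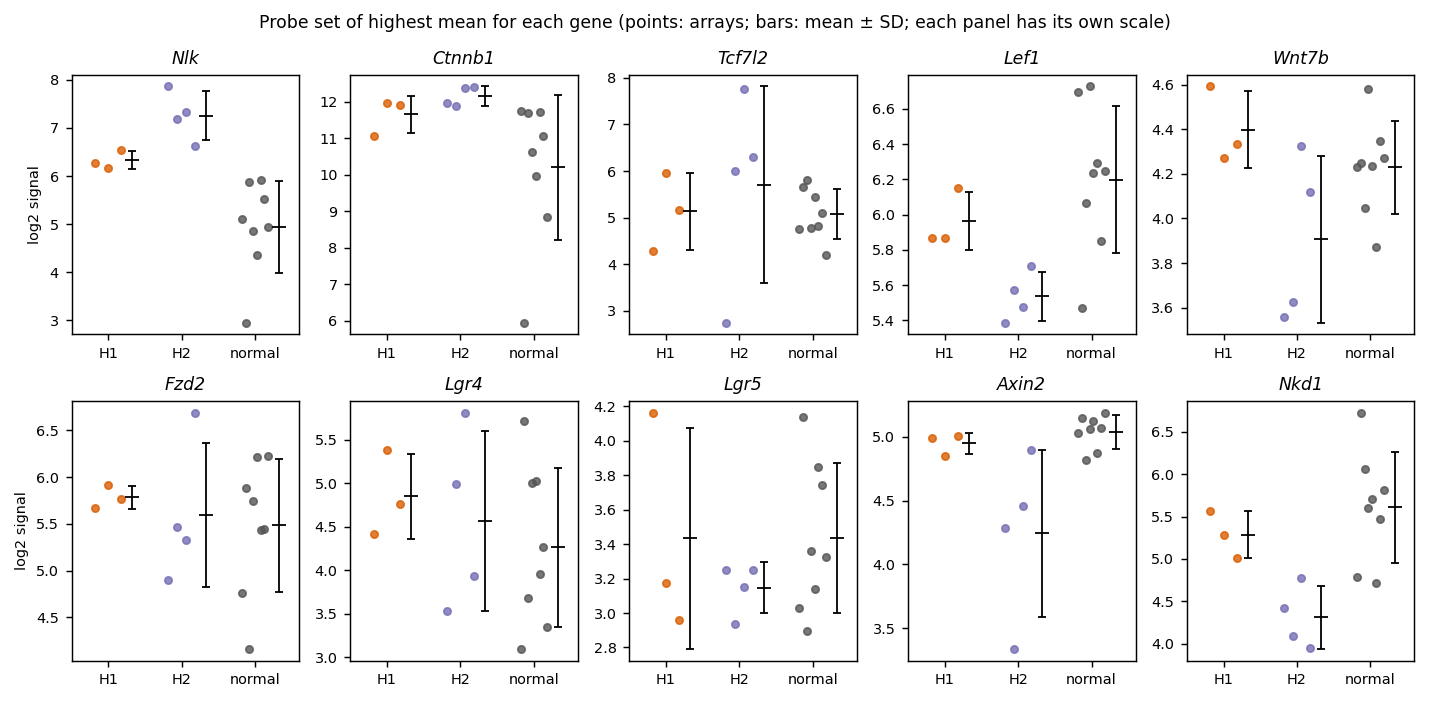
Log2 signal of the brightest probe set of each of the 10 genes on each array (points), with the mean and SD of H1, H2 and normal cells, each panel on its own scale. Nlk shows no overlap between lesions and normal cells, Nkd1 and Lef1 show H1 above H2, and the normal arrays of Ctnnb1 reach from 5.95 to 11.76.

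At an adjusted p under 0.05, limma called 1 of the 10 genes between lesions and normal cells (Nlk, higher), where 0.291% of all genes were called (0.28% higher, 0.011% lower) and 0.225% had groups that did not overlap. For H1 against normal, 0 of 10 were called, beside 0.011% of all genes, and 1 had an unadjusted p under 0.05, beside 4.23% of all genes. For H2 against normal, 2 were called (Nlk higher, Nkd1 lower), beside 3.38% of all genes (2.89% higher, 0.495% lower). Groups that did not overlap were found for Nlk in H1 (1.4% of all genes) and for Nlk and Ctnnb1 in H2 (3.79% of all genes). Since the genes were chosen with these comparisons known, the counts carry no weight of their own. The median difference of the 10 genes was 0.12 for H1 minus normal and -0.09 for H2 minus normal, where the medians of all genes were -0.05 and -0.04. Further probe sets of a gene often went another way: for H2 minus normal, 10 of the 17 further probe sets had the sign of the brightest one, and all did so only for Nlk, Ctnnb1, Wnt7b and Axin2.

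**Figure D3:**
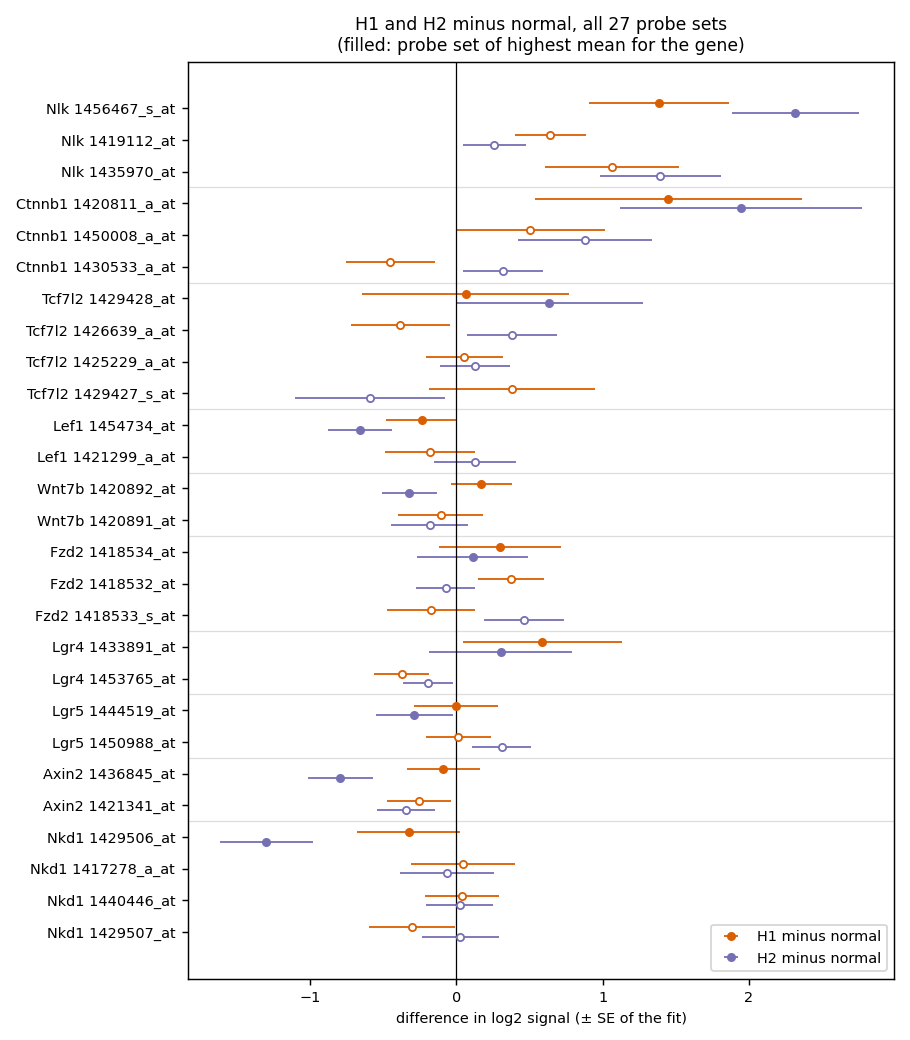
Differences of log2 signal, H1 minus normal and H2 minus normal, for all 27 probe sets with the SE of the fit, the brightest probe set of each gene filled. The brightest probe sets of Nlk and Ctnnb1 lie farthest to the right and that of Nkd1 in H2 farthest to the left, at -1.30.

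None of the 10 genes passed the test between H1 and H2, where limma called 0.0055% of all genes. For Nlk, H1 minus H2 was -0.93 ± 0.55 (95% interval -2.09 to 0.23, adjusted p = 0.482 by limma). The further Nlk probe sets gave 0.38 and -0.33. Axin2 was higher in H1 by 0.71 ± 0.28, with an interval of 0.11 to 1.30, an unadjusted p of 0.0227 and an adjusted p of 0.349 by limma. For Axin2, leaving out H2 replicate 5 gave 0.40, and the dimmer probe set gave 0.09. Nkd1 was higher in H1 by 0.97 ± 0.40, with an interval of 0.13 to 1.82, an unadjusted p of 0.0261 and an adjusted p of 0.357 by limma. The further Nkd1 probe sets gave -0.33 to 0.11. The Nkd1 difference was 0.19 with the mean of probe sets and 0.016 with the replicate block. Axin2 and Nkd1 were the ones with an unadjusted p under 0.05, a level that 12.3% of all genes reached.

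For the other genes the intervals of H1 minus H2 all held 0. The interval was -0.15 to 1.00 for Lef1 around 0.43, and -0.002 to 0.99 for Wnt7b around 0.49. It was -2.71 to 1.71 for Ctnnb1 around -0.50, and -2.28 to 1.14 for Tcf7l2 around -0.57. Fzd2 had an interval of -0.82 to 1.20, Lgr4 of -1.02 to 1.60 and Lgr5 of -0.41 to 0.98. Of these 7 genes, the interval takes in differences of more than 1 log2 unit for Ctnnb1, Tcf7l2, Fzd2, Lgr4 and, narrowly, Lef1. By the brightest probe set, the arrays of H1 and H2 did not overlap for Nlk, Lef1 and Nkd1, 3 of 10 genes, where 18.2% of all genes did not overlap. The dimmer Lef1 probe set gave -0.31. For H1 minus H2, 10 of the 17 further probe sets had the sign of the brightest one. The median difference of the 10 genes was 0.29, against -0.06 for all genes.

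The spread of values within an array, measured as the SD of its gene values, moved with several of these signals. The share of all genes that move with spread was not determined, so the relation is not shown to be particular to these 10. Spread is computed from the gene values of the same array, so it is not independent of these signals. For a gene far from the middle of the range, a relation to spread is partly built in. The brightest Ctnnb1 probe set had a higher mean than 99.95% of probe sets. The spread was 1.42 ± 0.10 in H1, 1.64 ± 0.12 in H2 and 1.38 ± 0.18 in normal cells, so H2 was the widest on average. The ranges overlapped, since normal replicate 3, at 1.67, was wider than H2 replicates 1 and 5 (1.52 and 1.58). Within the 8 normal arrays, where no lesion enters, Ctnnb1 was higher on wider arrays (Pearson r = 0.84, exact permutation p = 0.00516, adjusted p = 0.0172 over the 10 genes, Spearman rho = 0.86, p = 0.0107, adjusted p = 0.0536). Axin2 was lower on wider normal arrays (r = -0.89, exact permutation p = 0.00283, adjusted p = 0.0172, rho = -0.86, p = 0.0107, adjusted p = 0.0536), and so was Fzd2 (r = -0.87, exact permutation p = 0.00404, adjusted p = 0.0172, rho = -0.81, p = 0.0218, adjusted p = 0.0726). For Nlk, r was 0.75 (exact permutation p = 0.0249, adjusted p = 0.0623) and rho was 0.69 (p = 0.0694, adjusted p = 0.138). Without normal replicates 1 and 3, the arrays farthest from the median spread, r was 0.89 for Ctnnb1, -0.90 for Axin2, -0.59 for Fzd2 and 0.80 for Nlk. For the other 6 genes the adjusted p of r lay between 0.224 and 0.612. Among them Nkd1, which was lowest in H2, had r = -0.52 over the 8 arrays and -0.95 without the same 2 arrays.

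With array spread as a term in the fit, Nlk differed from normal by 1.28 in H1 and by 1.60 in H2. Ctnnb1 in H2 differed from normal by -0.14 in that fit, so its direction turned. Axin2 differed by -0.80 in H2, Nkd1 by -0.84 and Lef1 by -0.91. With the Actb control probes (3′ minus 5′ signal, a measure of RNA length) as the term instead, H2 minus normal was 1.66 for Nlk, -0.69 for Axin2 and -0.88 for Nkd1.

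**Figure D4:**
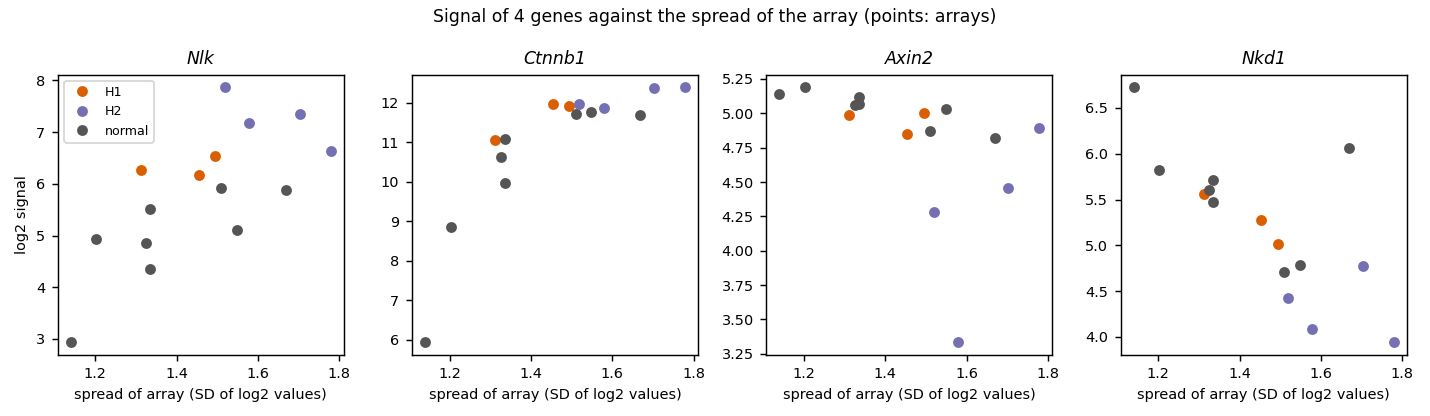
Log2 signal of 4 genes against the spread of each array, the SD of its gene values, with H1, H2 and normal arrays as separate points. On the normal arrays Ctnnb1 goes up with spread and Axin2 goes down. The H2 arrays lie between 1.52 and 1.78, and the normal arrays reach from 1.14 to 1.67.

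Markers of some cell types also differed in level between the groups. As a measure of comparison, 42.3% of all genes were higher in lesions than in normal cells. Of the AT2 markers, all 7 measured had a higher mean in lesions, with a median difference of 1.35 for H1 minus normal and 2.22 for H2 minus normal. The mean of these markers ran from 7.87 to 9.34 in H1, from 8.73 to 9.93 in H2 and from 5.03 to 9.66 in normal cells. Of 6 markers of alveolar type 1 cells, 2 were higher in lesions, near the share of all genes, 1 in H1 and 3 in H2. Their median difference was -0.69 for H1 minus normal and -0.44 for H2 minus normal. The mean of the type 1 markers ran from 6.27 to 7.15 in H1, from 6.87 to 7.33 in H2 and from 4.54 to 9.16 in normal cells. All 5 general epithelial markers were higher too, by a median of 1.04 in H1 and 2.33 in H2, and their mean ran from 5.98 to 6.96 in H1, from 6.95 to 7.90 in H2 and from 4.14 to 6.87 in normal cells. Of 8 endothelial markers, 0 were higher in lesions, and their mean ran from 4.59 to 5.16 in H1, from 4.50 to 5.03 in H2 and from 4.44 to 6.92 in normal cells. The other lists held markers of club cells, ciliated cells, fibroblasts, smooth muscle and pericytes, macrophages, and lymphocytes. Their median differences lay between -0.14 and 0.11 for H1 minus normal and between -0.13 and 0.38 for H2 minus normal. The part of cell makeup in the differences of Nlk, Ctnnb1, Axin2 and Nkd1 was not tested.

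The genes whose centred values lay closest to those of Nlk over the 15 arrays were Ndufb3, a subunit of respiratory complex I, Cstb, a cysteine protease inhibitor, and Lratd2. Their root mean square differences from Nlk were 0.465, 0.513 and 0.532 log2 units, where the median over all genes was 1.31. Ndufb3 averaged 6.82 ± 0.09 in H1, 7.93 ± 0.36 in H2 and 5.88 ± 1.24 in normal cells. For Ctnnb1 the closest genes were Tmsb4x, which encodes an actin-binding peptide, Rpl13a, a ribosomal protein gene, and Tpt1, at 0.330, 0.385 and 0.390, with a median over all genes of 1.70. For Tcf7l2 they were Mosmo, Sfxn2 and Shc1, at 0.573, 0.612 and 0.637, with a median of 1.21. All points share the same arrays and their spread, so likeness of pattern is a description of these arrays.

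The rest of the pathway was followed in 10 lists by role with 112 genes, of which 110 were measured. These lists were chosen with earlier results of these data known. Their p-values therefore describe these arrays and are not an independent test. In H2 against normal, limma called 4 of the 110 genes (3.64%), close to the 3.38% of all genes, with Wnt5a, Fzd7 and Cd44 higher and Prickle2 lower. Cd44, which encodes a hyaluronan receptor and is a Wnt target in the gut, read 8.00, 7.29, 8.08 and 8.64 in H2, against 5.74 to 7.21 in normal cells with a median of 6.23. By this brightest probe set it rose by 1.65 ± 0.28 (adjusted p = 0.00857 by limma), and all H2 arrays lay above all normal arrays. In H1 the same probe set read 6.74, 7.48 and 7.23. The further Cd44 probe sets also had higher means in H2, but their H2 arrays overlapped normal arrays. Those means were 5.92, 6.04 and 3.83 in H2, against 5.48, 4.45 and 3.76 in normal cells.

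Fzd7, a Frizzled receptor, rose by 2.43 ± 0.50 in H2 (adjusted p = 0.0194), reading 7.71, 7.66, 8.53 and 10.39, against 4.84 to 7.21 in normal cells with a median of 6.17. Its second probe set did not share the difference, at -0.07. Wnt5a, a ligand best known for signalling without β-catenin, rose by 0.85 ± 0.20 (adjusted p = 0.0352), reading 4.34, 4.76, 5.09 and 5.36 in H2, against 3.81 to 4.42 in normal cells. Its lowest H2 array lay within the normal range, and the further probe sets gave -0.04 to 1.46. Prickle2, a planar cell polarity gene, fell by 1.34 ± 0.27 on the log2 scale (adjusted p = 0.0164), reading 4.02, 4.58, 4.19 and 3.75 in H2, against 4.83 to 6.27 in normal cells. It is measured by 1 probe set, and its H2 arrays lay below all normal arrays.

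With array spread in the fit, Prickle2 kept its call (-1.61, adjusted p = 0.0254 by limma), while Cd44 (1.31, adjusted p = 0.0812), Fzd7 (1.22, adjusted p = 0.203) and Wnt5a (0.89, adjusted p = 0.133) lost theirs. Leaving out H2 replicate 6 or 7 ended the calls of Fzd7 (adjusted p = 0.0640 and 0.0736), Prickle2 (0.0557 and 0.0743) and Wnt5a (0.117 and 0.139). Wnt5a also lost its call without H2 replicate 5 (adjusted p = 0.0635) and without normal replicate 4, 5 or 8 (0.0602, 0.0622 and 0.0567), and was called in 9 of 15 such fits. Cd44 was called in all 15 fits that left out 1 array and in 7 of 11 other fits. Besides the spread term, its call was lost under repeated quantile normalization (0.89, adjusted p = 0.117 by limma), with the replicate block (1.32, adjusted p = 0.121) and with the Actb term (1.53, adjusted p = 0.0528). In the same 11 fits Fzd7 was called in 8, Wnt5a in 7 and Prickle2 in 11. Fzd7 also lost its call with the block (adjusted p = 0.108 by limma) and the Actb term (0.122). Wnt5a also lost its call with the block (0.175), the Actb term (0.122) and only the arrays compared (0.0608).

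By role, no list had more than 1 called gene in H2 against normal. Of all genes, 46.3% were higher in H2 than in normal cells. Ligands had 6 of 18 genes higher, with a median difference of -0.19. Receptors had 9 of 15 higher with a median of 0.23, and secreted inhibitors had 3 of 13 higher with a median of -0.30. Dishevelled and destruction complex genes had 12 of 16 higher, with a median of 0.50 and 0 called. Examples are Dvl1, a Dishevelled gene that relays the signal from Frizzled (1.44 ± 0.41, adjusted p = 0.0662 by limma), and Csnk1a1, the kinase that primes β-catenin for degradation (1.55 ± 0.46, adjusted p = 0.0725 by limma). Over all 110 genes, 54 were higher and 56 lower, with a median of -0.02. Before adjustment, 17 were higher and 8 lower with p under 0.05, a level that 21.4% of all genes reached.

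Genes that activate Nlk or are its substrates had 6 of 8 higher in H2, beside 46.3% of all genes, and 0 called, with a median of 0.71. The lowest p among them belonged to Tab2, an adaptor of the kinase Map3k7 that acts upstream of Nlk, at 9.90 ± 0.31 in H2 and 8.21 ± 1.37 in normal cells (1.69 ± 0.59, adjusted p = 0.118 by limma). Next was Foxo1, a transcription factor that Nlk phosphorylates, at 0.89 ± 0.35 (adjusted p = 0.163 by limma). In H1 against normal 3 of these 8 genes were higher, beside 43.5% of all genes, with a median of -0.16.

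Other list members did not pass in H2 against normal. Porcn, which acylates Wnt proteins for secretion, differed by -0.87 ± 0.27 (adjusted p = 0.0854 by limma). Frzb, a secreted Wnt antagonist, differed by -0.72 ± 0.34 (adjusted p = 0.229 by limma). Znrf3, a ubiquitin ligase that removes Frizzled receptors, differed by -0.41 ± 0.18 (adjusted p = 0.192 by limma). The nuclear cofactor gene Bcl9l differed by -0.44 ± 0.23 (adjusted p = 0.272 by limma).

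In the remaining comparisons limma called 0 of the 110 genes. For all lesions against normal, 6 had higher and 5 lower signals with p under 0.05 before adjustment, a level that 12.8% of all genes reached. For H1 against normal, 1 was higher and 3 were lower, where 4.23% of all genes reached that level. For H1 against H2, 7 were higher in H1 and 12 lower, where 12.3% of all genes reached it. Stat3, which Nlk can phosphorylate, was at 5.02 ± 0.47 in H1 and 6.44 ± 0.53 in H2, a difference of -1.42 ± 0.41 (adjusted p = 0.299 by limma).

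**Figure D5:**
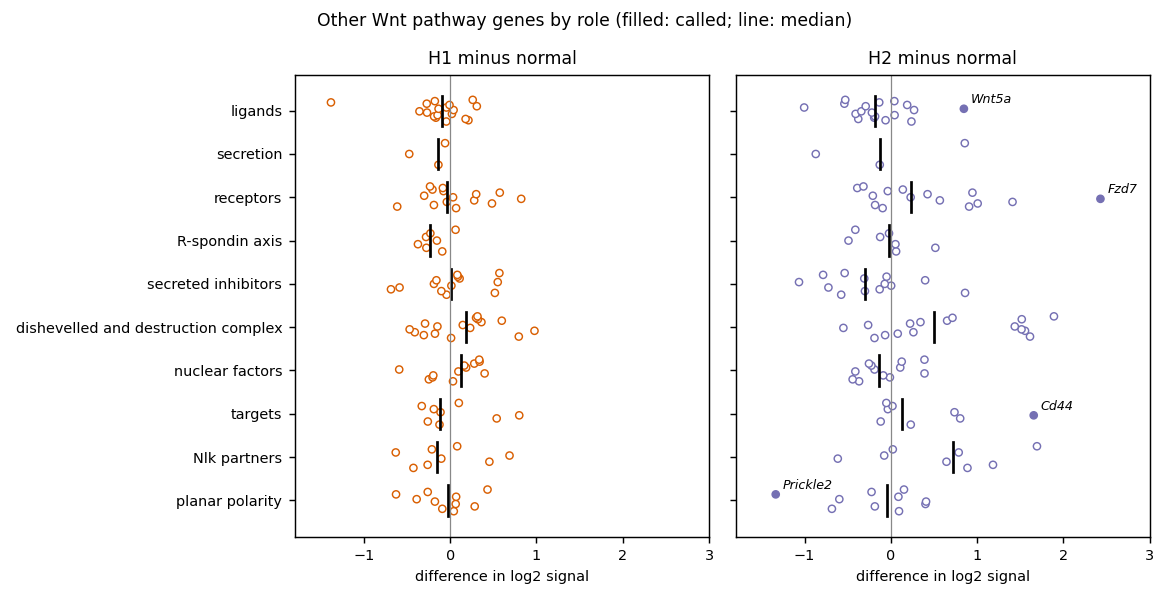
Differences of log2 signal from normal cells for the 110 other pathway genes by role, H1 minus normal and H2 minus normal, with filled points for called genes and a line at the median of each list. The 4 called genes are in H2, and Fzd7 lies farthest to the right at 2.43.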

How the data were processed

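Per the labels' protocols, RNA of laser-captured cells was isolated (PicoPure) and amplified (WT-Ovation One-Direct). The table deposited by the authors holds log2 signals, 1 per probe set and array, and the submitters' processing notes name affy and RMA, which corrects background, equalises probe intensities between arrays and summarises probes. No version is given in the sources used here. Of 45101 probe sets, 64 controls were left out. Symbols came from the platform annotation: 34945 probe sets carried 1 symbol, 932 several and 9160 none, and 34741 were found by gene ID in RefSeq (GRCm38.p6). The probe set of highest mean over all arrays stood for its gene, which gave 18193 genes.

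Differences were fitted with limma 3.58.1 in R 4.3.3 (lmFit, eBayes) on the log2 values, with 2 groups (lesions, normal) or 3 (H1, H2, normal) over all 15 arrays, and p-values were adjusted by Benjamini-Hochberg over all genes. Genes with an adjusted p under 0.05 count as called. Further probe sets were fitted over all probe sets. The number of arrays limits the precision, and signals near background say little.

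The 10 genes, the lists of other Wnt genes and of cell type markers (10 lists each) and the motif were chosen with earlier results of these data known. Named were all 10 genes, other Wnt genes called in a comparison, and otherwise up to 2 per list with the lowest p, of which the text gives examples. The nearest patterns were given for Nlk and for genes whose SD exceeded that of 90% of genes. Kremen2 and Tcf7 were not measured. Same-numbered samples gave mixed results: 3 of 7 pairs had a correlation over 0.1 (range -0.35 to 0.53). In 2 pairs the lesion was closest to the normal array of its own number. These correlations cannot settle whether such samples shared a mouse. The numbers were not taken as pairs in the main fit, and a fit with them as blocks is among the alternatives. Alternatives changed the normalization, the probe set, a filter on dim genes, the variance prior, array weights, blocks, covariates and the arrays included.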

Additional observations from a re-analysis of the deposited data

Results flagged for a closer look

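Among the 54 groups of 4 or 8 arrays checked over the 27 probe sets, 3 held an array far from the rest of its group, and chance alone would mark about 1 in 20 groups. For the dimmer Lef1 probe set, 1421299_a_at, H2 replicate 5 read 3.49, against 2.41 for the next array and 2.33 for the lowest. For the same probe set, normal replicate 2 read 3.70, against 2.52 for the next array and 2.14 for the lowest. For the Nkd1 probe set 1429507_at, H2 replicate 5 read 3.92, and the other 3 H2 arrays all read 4.06. Both probe sets repeat 1 value, the Lef1 probe set on 5 arrays and the Nkd1 probe set on 4.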

How the results depend on the processing

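The call of Nlk between lesions and normal cells, 1 of 10 genes, became 0 under repeated quantile normalization, with every probe set tested on its own, a trended robust prior, the replicate block, array spread as a term, or without the 2 normal arrays of narrowest spread (replicates 2 and 8), and 0 to 1 when 1 array was left out (called in 4 of 15 such fits). For H2 against normal, the 2 called genes became 0 under repeated quantile normalization, the replicate block, array spread or the Actb difference as a term, 1 with the mean of probe sets, with only the arrays compared or without the 2 narrowest normal arrays, 4 with array weights, and 0 to 3 when 1 array was left out. In that comparison Nlk was called in 14 of 15 fits, the exception being without H2 replicate 6, and Nkd1 in 6 of 15. These fits reuse the arrays on which the 10 genes were chosen. Such counts therefore describe dependence on the processing and lend a call no support. Other Wnt genes called between lesions and normal cells numbered 1 rather than 0 with median centring, array weights or the replicate block, and 0 to 2 when 1 array was left out. For H2 against normal the 4 became 7 over every probe set, 13 with array weights and 1 with the replicate block, array spread or the Actb difference. They became 5 with median centring or the mean of probe sets, and 3 with repeated quantile normalization or only the arrays compared. When 1 array was left out they numbered 1 to 9 (1 without H2 replicate 6 or 7, 9 without normal replicate 3). For H1 against H2, array weights gave 3 rather than 0. Signs of H1 minus H2 turned for Ctnnb1 (0.14 with quantile normalization, 1.21 with the replicate block, 1.30 with array spread, 0.77 with Actb), Fzd2 (-0.00063 with the mean of probe sets, -0.23 with spread, -0.17 with Actb), Lgr4 (-0.43 with the block, -0.12 with spread, -0.49 with Actb), Lgr5 (-0.0054 with the mean of probe sets, -0.048 with spread) and Tcf7l2 (0.072 with spread); when 1 array was left out they ranged over -0.042 to 0.56 for Fzd2, -0.060 to 0.70 for Lgr4, -0.079 to 0.52 for Lgr5 and -1.56 to 0.11 for Tcf7l2. The causes were not tested. Genes called in H2 against normal over the whole table numbered 34 to 1586 higher and 5 to 613 lower over the 12 settings other than leaving out 1 array. In those of H1 against H2, 0 to 63 were higher and 0 to 121 lower. The filter on dim genes left 12711 genes and 9 of the 10, without Lgr5.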
